A study of Mus musculus with 16 samples.

Results

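Vmn2r1 to Vmn2r7 are 7 neighbouring vomeronasal receptor genes, 7 of the 36499 gene entries in a table of RNA counts from mouse cardiac tissue. They were found by their symbols. Vmn2r3 was chosen by its measured counts in these same libraries, which were higher with loss of CLPP mainly where Fgf21 was intact, and the other 6 were taken because they carry neighbouring family numbers. The values of Vmn2r3 over the genotypes are therefore a description, with no test. CLPP is the proteolytic subunit of a protease in the mitochondrial matrix, and FGF21 is a hormone that tissues under metabolic stress can secrete.

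The libraries came from 4 genotypes, with 4 libraries each: double KO (both Clpp and Fgf21 deleted), Clpp KO, Fgf21 KO and wild type. Clpp was deleted in the whole body with a Cre recombinase under the β-actin promoter, by crossing floxed mice and then intercrossing heterozygous offspring, and the double KO came from mice with both genes floxed. The source used here does not describe how the Fgf21 single KO was made, and it gives neither age nor sex. All mice were fed normal chow. Each library carries only a repeat number, with no word on whether each came from its own animal, so the p-values measure the spread between libraries, part of which may be technical. mRNA libraries of cardiac tissue, made with a stranded kit, held 36260545 to 51820727 counts each.

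The Clpp genotype was visible in the counts, and the Fgf21 genotype only among libraries without CLPP. Clpp had 272, 267, 289 and 293 counts in double KO and 308 to 355 in Clpp KO, against 1435 to 2636 in Fgf21 KO and 1728 to 2108 in wild type. Fgf21 had 0 counts in every double KO and Fgf21 KO library, with 6 to 28 counts in Clpp KO. In wild type it had 0 to 5, which overlaps Fgf21 KO.

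V2R receptors are class C G-protein-coupled receptors with a large extracellular domain that binds ligands. They are best known from the basal sensory neurons of the vomeronasal organ, where they detect peptide and protein pheromones and signal through the G protein subunit Gαo and the channel TRPC2. Vmn2r1 to Vmn2r7 belong to the small group of V2Rs that these neurons express broadly, together with another, more selectively chosen V2R. The heart is not a tissue in which they are known to act.

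The 7 genes lie side by side in 763 kb of chromosome 3, chr3:64081547-64844765 in GRCm38 with GENCODE M21 annotation. Vmn2r1 is on the plus strand and the other 6 are on the minus strand. Vmn2r3 (ENSMUSG00000091572, chr3:64257215-64289709) has 9 annotated transcripts, of which 3 are protein coding, 4 are candidates for nonsense-mediated decay and 2 retain introns. Its exons merge to 17411 bases, against 5055 to 9571 bases in the other 6. Its longest coding transcript is 5149 bases with a coding region of 2727 bases in the GENCODE annotation.

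The coding regions are close copies, so it matters how far a read can tell them apart. Between Vmn2r3 and each of the other 6 the aligned coding bases are 84.4% to 89.7% identical, and Vmn2r6 and Vmn2r7 are 98.8% identical. In the stretch where they are most alike, 60 bases near the end of the coding region are the same in all 7 genes (Vmn2r3 at chr3:64259048-64259107, minus strand, GRCm38). A read within it cannot be assigned to 1 member.

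All 7 members: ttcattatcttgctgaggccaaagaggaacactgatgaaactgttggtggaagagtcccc

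The stretch that separates Vmn2r3 most from the rest is shown for all 7 genes (Vmn2r3 at chr3:64271368-64271427, minus strand, GRCm38). Capitals mark bases that differ from Vmn2r3 in the alignment. The other members differ at 17 (Vmn2r5) to 27 (Vmn2r1) of the 60 bases.

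Vmn2r3: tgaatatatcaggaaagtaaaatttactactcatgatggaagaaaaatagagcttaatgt
Vmn2r1: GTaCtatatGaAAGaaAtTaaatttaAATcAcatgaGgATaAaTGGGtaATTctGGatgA
Vmn2r2: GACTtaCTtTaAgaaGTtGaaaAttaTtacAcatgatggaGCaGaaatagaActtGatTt
Vmn2r4: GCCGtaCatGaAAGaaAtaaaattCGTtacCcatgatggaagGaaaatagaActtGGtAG
Vmn2r5: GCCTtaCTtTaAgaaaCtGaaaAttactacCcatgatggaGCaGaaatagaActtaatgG
Vmn2r6: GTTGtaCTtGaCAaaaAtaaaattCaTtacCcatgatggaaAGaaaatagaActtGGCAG
Vmn2r7: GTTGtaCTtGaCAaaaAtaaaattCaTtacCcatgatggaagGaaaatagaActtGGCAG

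Vmn2r3 had the smallest share of sequence found in other genes among the 7 members. Of its 17620 distinct 31-base words over all transcripts, 6.52% occur in another gene and 4.17% in another member. The largest share with any 1 other gene, 2.71%, is with Vmn2r4, and the largest outside the 7 members, 2.24%, is with the pseudogene Vmn2r-ps5. In the shortest of its coding transcripts, at 2670 bases, 30.9% of the words occur in another gene. The shares for the other members are 21.9% (Vmn2r1), 22.6% (Vmn2r2), 36% (Vmn2r4), 49.8% (Vmn2r5), 64.5% (Vmn2r6) and 67% (Vmn2r7). For Vmn2r6 and Vmn2r7 most of the sharing is with each other, and for Vmn2r5 it is with the pseudogene Vmn2r-ps11 (42.3%). Counts of Vmn2r4 to Vmn2r7 are therefore uncertain in how reads were split among the copies.

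**Figure D1:**
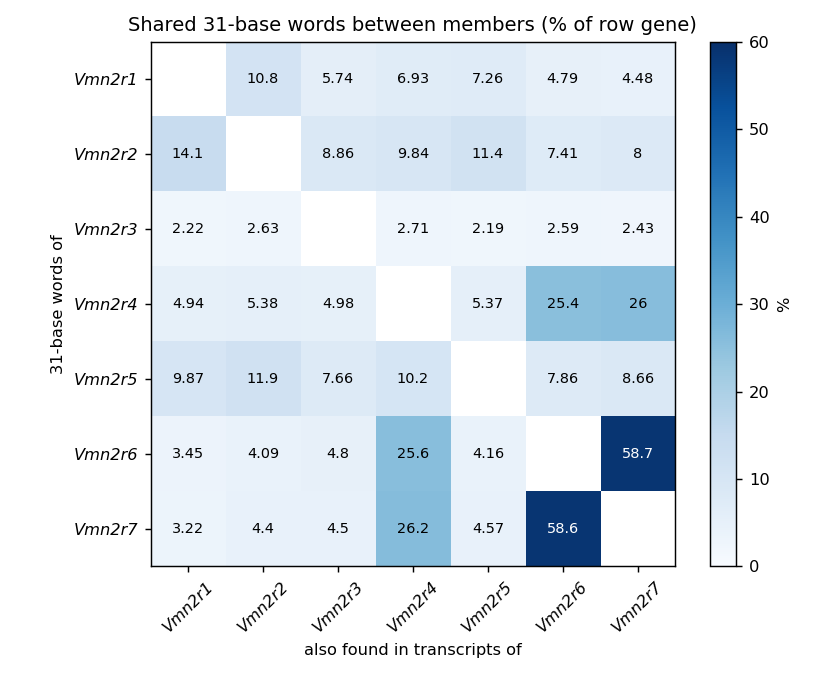
Shared 31-base words between members, as a percentage of the distinct words of the gene in each row that also occur in a transcript of the gene in each column. Vmn2r6 and Vmn2r7 share most with each other (58.7% and 58.6%), and the row of Vmn2r3 holds 2.19% to 2.71%.

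Vmn2r3 had 44, 48, 19 and 27 counts in double KO, 203, 131, 152 and 169 in Clpp KO, 17, 15, 14 and 7 in Fgf21 KO, and 15, 30, 16 and 14 in wild type. Every Clpp KO library was above every library of the other 3 genotypes. Scaled to the library total, double KO overlapped wild type, because wild-type replicate 2 reached 0.827 CPM (counts scaled to a common library total) and double KO replicate 3 stood at 0.407 CPM. The lowest double KO library was 1.09 times the highest Fgf21 KO library. In bulk tissue, fewer cells of a type and less RNA per cell cannot be told apart.

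Mean levels of Vmn2r3 were 0.758 ± 0.319 CPM in double KO, 3.48 ± 0.639 CPM in Clpp KO, 0.298 ± 0.0868 CPM in Fgf21 KO and 0.468 ± 0.241 CPM in the wild type (SD over libraries, n = 4 each). The order was thus Clpp KO, double KO, wild type and Fgf21 KO, and of neighbours in this order only Clpp KO and double KO did not overlap. With library totals corrected by TMM, a scaling on the bulk of genes, the means were 1.00 in double KO, 4.25 in Clpp KO, 0.25 in Fgf21 KO and 0.322 in wild type. On that scale wild-type replicate 2 was at 0.453 CPM and the lowest double KO library at 0.590 CPM, so that these groups no longer overlapped.

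**Figure D2:**
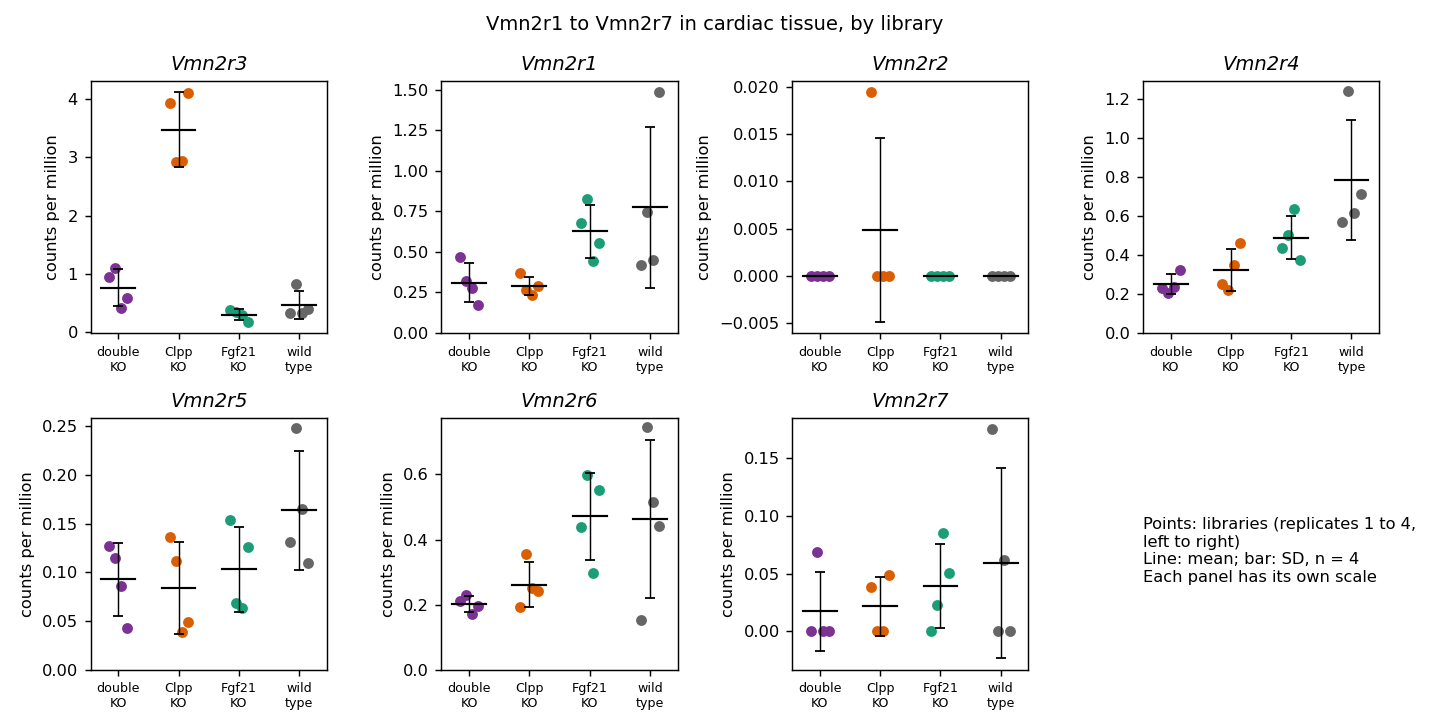
Level of each member in CPM (vertical axes, own scale in each panel) for the 4 genotypes, with a point for each library, a line at the mean and bars of 1 SD (n = 4). Vmn2r3 is highest in the 4 Clpp KO libraries, at 2.92 to 4.11 CPM, while on this scale of library totals the means of Vmn2r1, Vmn2r4 and Vmn2r6 are lower in both groups without CLPP than in Fgf21 KO and wild type.

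Fold changes came from 1 edgeR quasi-likelihood model of all 16 libraries with TMM scaling, and ± gives the standard error. Vmn2r3 had a log2 fold change of 3.70 ± 0.30 in Clpp KO against wild type, which is 13-fold. In double KO against Fgf21 KO it was 1.99 ± 0.31, or 3.97-fold, and in double KO against Clpp KO it was −2.08 ± 0.28. In Fgf21 KO against wild type it was −0.37 ± 0.31. These 4 comparisons share libraries, since each genotype enters 2 of them.

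The interaction, which is the effect of CLPP loss without Fgf21 minus its effect with Fgf21 intact, was −1.71 ± 0.42 for Vmn2r3. Of the 15255 genes tested, 14 exceeded the log2 fold change of Vmn2r3 in Clpp KO against wild type, and 124 exceeded it in double KO against Fgf21 KO. Lower values than that of Vmn2r3 were held by 25 genes in double KO against Clpp KO and by 33 genes in the interaction. No gene at all was called in the interaction by edgeR, against 299 genes at an unadjusted p under 0.05, and DESeq2 called 3.

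None of the other members was called with loss of CLPP, and the log2 fold changes of those tested were below 0. Of the 7 genes, 4 passed the filter on low counts, namely Vmn2r1, Vmn2r3, Vmn2r4 and Vmn2r6. In Clpp KO against wild type, where 1.63% of all genes tested were called at an adjusted p under 0.05 over all of them, none of Vmn2r1, Vmn2r4 and Vmn2r6 was among the calls. Vmn2r1, Vmn2r4 and Vmn2r6 were likewise not called in double KO against Fgf21 KO (0.892% of all genes called), in double KO against Clpp KO (0.059%), Fgf21 KO against wild type (0.0459%) or the interaction (0%). Over these 5 comparisons edgeR gave 0 unadjusted p under 0.05 for the 3 genes, and DESeq2 called none of them.

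Vmn2r1 had 22, 14, 13 and 8 counts in double KO, 19, 12, 12 and 12 in Clpp KO, 31, 36, 21 and 22 in Fgf21 KO, and 19, 27, 22 and 54 in wild type. Scaled to the library total, the Clpp KO libraries lay below all wild-type libraries, and 1 wild-type library, replicate 4, stood above the other 15. On that scale 11834 of the 15255 genes tested were called lower in Clpp KO against wild type. The log2 fold change was −0.65 ± 0.39 in Clpp KO against wild type (95% interval −1.50 to 0.19, adjusted p = 0.332, edgeR) and −0.33 ± 0.39 in double KO against Fgf21 KO (−1.18 to 0.51, adjusted p = 0.891). These intervals hold no change as well as falls of more than 2-fold.

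Vmn2r4 had 11, 9, 11 and 15 counts in double KO, 13, 10, 18 and 19 in Clpp KO, 20, 22, 30 and 15 in Fgf21 KO, and 26, 45, 30 and 26 in wild type. By library total, double KO lay below Fgf21 KO and Clpp KO below wild type in every library. Most of the 15255 genes tested were called lower on that scale. They numbered 11834 in Clpp KO against wild type and 10763 in double KO against Fgf21 KO. Scaled by TMM the differences were −0.48 ± 0.31 on the log2 scale in Clpp KO against wild type (95% interval −1.17 to 0.20, adjusted p = 0.376, edgeR) and −0.27 ± 0.32 in double KO against Fgf21 KO (−0.98 to 0.44, adjusted p = 0.894).

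Vmn2r6 had 10, 10, 8 and 9 counts in double KO, 10, 16, 13 and 10 in Clpp KO, 20, 26, 14 and 22 in Fgf21 KO, and 7, 27, 25 and 16 in wild type. The wild-type libraries alone spanned 0.153 to 0.745 CPM, which covers all Clpp KO libraries. The log2 fold change of Vmn2r6 was −0.03 ± 0.35 in Clpp KO against wild type (95% interval −0.80 to 0.73, adjusted p = 0.964, edgeR) and −0.52 ± 0.36 in double KO against Fgf21 KO (−1.30 to 0.26, adjusted p = 0.82). With single libraries left out, the value in Clpp KO against wild type ran from −0.29 to 0.13 and so took both signs.

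The lower CPM of these 3 genes without CLPP depends on the scaling. Over all genes tested, the median log2 fold change in Clpp KO against wild type was −0.04 with TMM and −0.79 with library totals alone. For double KO against Fgf21 KO it was −0.01 with TMM and −0.70 with library totals. With library totals alone, Vmn2r1 and Vmn2r4 were called lower in Clpp KO against wild type, and Vmn2r1, Vmn2r4 and Vmn2r6 in double KO against Fgf21 KO, while Vmn2r3 remained positive at 2.90 and 1.33. TMM factors ran from 0.674 to 0.875 in the libraries without CLPP and from 1.13 to 1.83 in those with it.

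In the comparisons that test Fgf21 loss, none of the 3 genes was called. In double KO against Clpp KO the log2 fold changes were 0.23 ± 0.40 for Vmn2r1, −0.20 ± 0.33 for Vmn2r4 and −0.21 ± 0.37 for Vmn2r6 (edgeR, adjusted p = 0.994 each). In Fgf21 KO against wild type they were −0.09 ± 0.37 for Vmn2r1, −0.41 ± 0.31 for Vmn2r4 and 0.27 ± 0.34 for Vmn2r6 (edgeR, adjusted p = 0.939, 0.613 and 0.761).

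The remaining 3 members were at or near the detection limit. Vmn2r2 had 1 count in all 16 libraries, in Clpp KO replicate 1. Vmn2r5 had 6, 5, 4 and 2 counts in double KO, 7, 5, 2 and 2 in Clpp KO, 7, 3, 3 and 5 in Fgf21 KO, and 6, 9, 8 and 4 in wild type. Vmn2r7 had 0, 3, 0 and 0 counts in double KO, 2, 0, 0 and 2 in Clpp KO, 0, 1, 4 and 2 in Fgf21 KO, and 8, 0, 3 and 0 in wild type. The groups overlapped for Vmn2r5 and Vmn2r7. Vmn2r2 had too few counts to compare. For Vmn2r5 and Vmn2r7, exact two-sided permutation tests of CPM in 4 comparisons each gave unadjusted p from 0.143 to 1 over 8 tests, where 0.0286 is the smallest p that 4 libraries against 4 can give.

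The make-up of the summed counts of the 7 members differed between genotypes. Vmn2r3 accounted for 34.5% to 53.9% of them in double KO libraries, 75.3% to 79.6% in Clpp KO, 9.59% to 17.9% in Fgf21 KO and 12.3% to 21.7% in wild type. The other 6 members together had 34 to 49 counts in double KO, 43 to 52 in Clpp KO, 66 to 88 in Fgf21 KO and 66 to 108 in wild type. These shares contain the difference by which Vmn2r3 was picked.

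Levels between the genes were compared per length. Per kb of the representative transcript, Vmn2r3 stood at 0.147 ± 0.062 CPM in double KO, 0.675 ± 0.124 in Clpp KO, 0.0578 ± 0.0169 in Fgf21 KO and 0.0908 ± 0.0469 CPM in the wild type (SD over libraries, n = 4 each). Vmn2r1 per kb stood at 0.0452 ± 0.0178 CPM in double KO, 0.0423 ± 0.00848 in Clpp KO, 0.0913 ± 0.0239 in Fgf21 KO and 0.113 ± 0.0724 in wild type. In wild type the means of Vmn2r1, Vmn2r3 and Vmn2r4 (0.0937 ± 0.0369) lay within 1 SD of each other. Per kb of all merged exons, Vmn2r3 was at 0.200 ± 0.0367 CPM in Clpp KO and 0.0269 ± 0.0139 CPM in wild type, so its place among the members in wild type depends on which transcripts are made.

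Of the other vomeronasal receptor genes tested, 1 was called with loss of CLPP. Of 116 other V2R genes in the table, 85 had a count, 37 passed the filter and 0 were called in any of the 5 comparisons by edgeR or DESeq2. At an unadjusted p under 0.05, edgeR had 4 of the 37 in Clpp KO against wild type, where 21.3% of all genes tested were under it, and 4 in double KO against Fgf21 KO, where 7.09% were. The rule for lists without a call named Vmn2r66 and Vmn2r97, with means of 46.1 and 6.44 CPM over all libraries. The median log2 fold change of the 37 was −0.09 in Clpp KO against wild type, beside −0.04 for all genes, and −0.05 in double KO against Fgf21 KO, beside −0.01. Of 207 V1R genes, the receptors of apical vomeronasal neurons, 121 had a count and 42 passed. In Clpp KO against wild type 1 of the 42 was called higher, Vmn1r65, where 1.08% of all genes were called higher. None was called by edgeR in the other comparisons, with 3 of 42 at an unadjusted p under 0.05 in double KO against Fgf21 KO (7.09% of all genes). DESeq2 called Vmn1r65 in both comparisons of CLPP loss, and Vmn1r175 in Clpp KO against wild type.

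Vmn1r65 had 118, 231, 140 and 98 counts in double KO, 244, 105, 108 and 123 in Clpp KO, 146, 69, 43 and 48 in Fgf21 KO, and 35, 82, 69 and 54 in wild type. Scaled to the library total, Clpp KO overlapped wild type, with Clpp KO replicate 3 at 2.08 CPM and wild-type replicate 2 at 2.26 CPM, and double KO overlapped Clpp KO. The log2 fold change of Vmn1r65 was 1.82 ± 0.38 in Clpp KO against wild type (edgeR, adjusted p = 0.0223) and 1.59 ± 0.37 in double KO against Fgf21 KO (adjusted p = 0.063). Its call was lost in 5 of 15 alternative settings, 3 of which left out a single library (wild-type replicate 4, Clpp KO replicate 1 or Clpp KO replicate 4). The other 2 were the replicate block (1.77, edgeR, adjusted p = 0.0536) and wild-type replicates 1 and 3 alone (2.02, adjusted p = 0.107). Over these 5 settings the log2 fold change was 1.55 to 2.02.

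Vmn2r25 was named after its values were seen, since it stood next to Vmn2r3 in the ranking. It had 19, 20, 7 and 3 counts in double KO, 29, 22, 15 and 12 in Clpp KO, 7, 0, 2 and 5 in Fgf21 KO, and 7, 5, 0 and 1 in wild type. Its log2 fold change was 3.06 ± 0.77 in Clpp KO against wild type and 2.37 ± 0.77 in double KO against Fgf21 KO. As its values named it, these are a description, with no test. Counts of 10 or more, the filter minimum, were reached only in libraries without CLPP. It thus passed the filter only through the groups where it is high. Of its distinct 31-base words, 34.8% occur in another gene, 24% in Vmn2r24. Of 83 tested receptors, counted from the highest log2 fold change, Vmn2r3 ranked 1 in Clpp KO against wild type and 2 in double KO against Fgf21 KO. It ranked 83 in double KO against Clpp KO. These ranks hold the values by which Vmn2r3 was chosen and are no test.

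**Figure D3:**
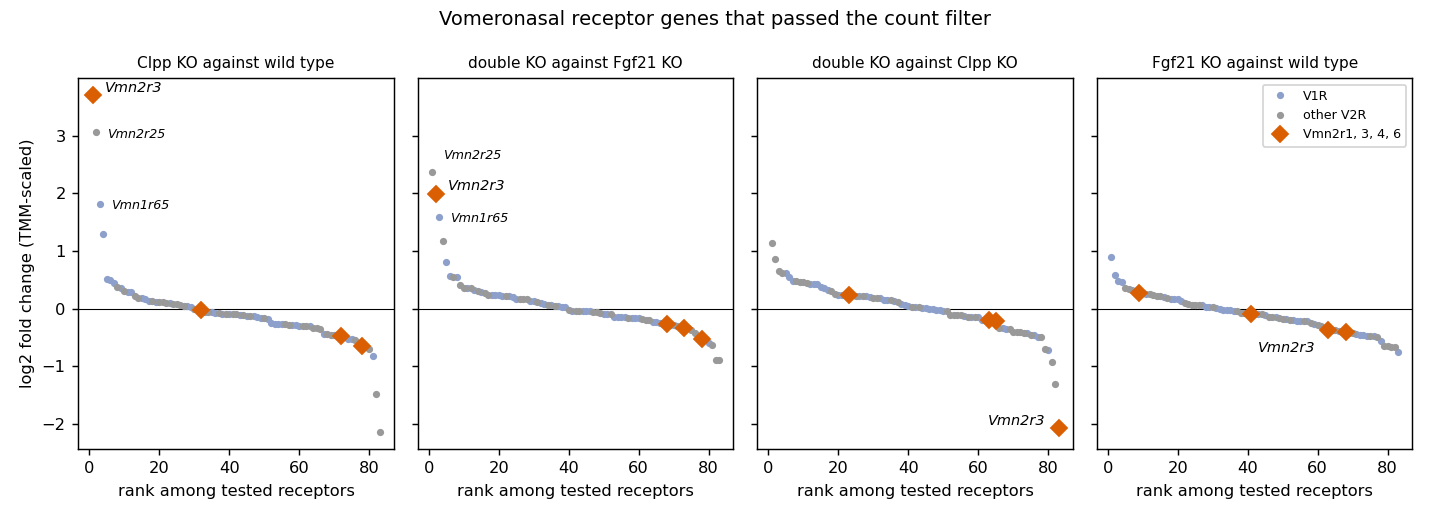
Log2 fold change (vertical axis, TMM-scaled) against rank for the 83 vomeronasal receptor genes that passed the filter, in 4 comparisons, with V1R genes in blue, other V2R genes in grey and Vmn2r1, Vmn2r3, Vmn2r4 and Vmn2r6 as orange diamonds. Vmn2r3 is at 3.70 in Clpp KO against wild type and at −2.08 in double KO against Clpp KO, the ends of the ranking, while the other 3 diamonds lie between −0.65 and 0.27.

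A list of vomeronasal signal transduction genes gave no call. Of 10 listed signal transduction genes 8 were tested, and 0 were called in each of the 5 comparisons by edgeR or DESeq2, with 2 at an unadjusted p under 0.05 in Clpp KO against wild type, beside 21.3% of all genes (median −0.40 in Clpp KO against wild type and −0.11 in double KO against Fgf21 KO). Defining vomeronasal genes were low. Omp, the marker protein of mature olfactory and vomeronasal neurons, had 23 counts in all 16 libraries together. Trpc2 had 425 counts in 11 libraries, with a mean of 0.165 ± 0.329 CPM in double KO, 0.417 ± 0.446 in Clpp KO, 0.760 ± 0.405 in Fgf21 KO and 1.17 ± 1.67 CPM in the wild type (SD over libraries, n = 4 each).

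The summed CPM of 7 vomeronasal neuron markers was 99.9 to 121 in double KO, 105 to 137 in Clpp KO, 174 to 204 in Fgf21 KO and 180 to 304 in wild type. Most of it came from Gnai2, which most tissues express, at a mean of 139 CPM over all libraries. None of the 4 markers tested was called by edgeR or DESeq2 in the 5 comparisons, and 0 had an unadjusted p under 0.05 by edgeR. Summed neuron markers were 2.63 to 5.46 CPM in double KO, 3.12 to 4.42 in Clpp KO, 6.57 to 11.4 in Fgf21 KO and 8.39 to 48.8 in wild type. Wild-type replicates 2 and 4 held 32.3 and 48.8 CPM, against 8.39 and 8.97 in replicates 1 and 3. Scaled by TMM, the 4 neuron markers tested had a median log2 fold change of −1.85 in Clpp KO against wild type. There edgeR called Stmn2 lower (−1.54 ± 0.29, adjusted p = 0.00992) and DESeq2 called Prph, Stmn2 and Tubb3. In double KO against Fgf21 KO the median was −0.26 and 0 were called. The part of either list in the levels of the members was not tested.

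Other receptors and partners were mostly low. A list of class Ib MHC genes that basal vomeronasal neurons express with V2Rs, together with the shared light chain B2m, had 10 genes, of which 3 had a count and only B2m was tested. B2m, which all class I molecules use, rose in Clpp KO against wild type (0.95 ± 0.16, edgeR, adjusted p = 0.00401) and in double KO against Fgf21 KO (1.54 ± 0.16, adjusted p = 5.13e-05). Scaled by library totals alone, its value in Clpp KO against wild type was 0.15 (edgeR, adjusted p = 0.523). Of 7 formyl peptide receptors, Fpr1 and Fpr2, which immune cells use, were detected and neither was tested.

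Ventricular cardiomyocyte markers were abundant in every library. By library total, their 7 genes summed to 27000 to 35600 CPM in double KO, 28100 to 31900 in Clpp KO, 44000 to 67100 in Fgf21 KO and 44200 to 53400 in wild type. Scaled by TMM, their median log2 fold change was −0.00 in Clpp KO against wild type and −0.08 in double KO against Fgf21 KO. In both comparisons edgeR and DESeq2 called 0 of the 7. On library totals the median of all genes was also lower, at −0.79 and −0.70. Atrial markers divided the wild-type libraries, with 110 and 102 CPM in replicates 1 and 3 against 18400 and 8600 in replicates 2 and 4. They spanned 134 to 1100 CPM in double KO, 154 to 2990 CPM in Clpp KO, and in Fgf21 KO 438 to 3510 CPM. With wild-type replicates 1 and 3 alone, the log2 fold change of Vmn2r3 in Clpp KO against wild type was 3.94 ± 0.38, and that of Vmn2r1 was −0.03 ± 0.36 (edgeR, adjusted p = 0.984) in place of −0.65. Whether the atrial share plays a part in the wild-type levels of the members was not tested.

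No tested neighbour outside the family was called. Of 43 genes annotated within 1 Mb, 32 were in the table, and 7 that are not members passed the filter. None of the 7 was called by edgeR or DESeq2 in the 5 comparisons, with 1 at an unadjusted p under 0.05 by edgeR in Clpp KO against wild type (21.3% of all genes) and 2 in double KO against Fgf21 KO (7.09%). Their log2 fold changes ran from −0.92 (Strit1, a regulator of the cardiac calcium pump) to 0.28 (Gm18294) in Clpp KO against wild type and from −0.88 to 0.27 in double KO against Fgf21 KO. Gm18294, a pseudogene 43.5 kb away, is the nearest annotated gene on 1 side, and had 0.28 ± 0.60 (edgeR, adjusted p = 0.798). The nearest on the other side, the small nucleolar RNA Gm23897 at 28.7 kb, was not analysed here.

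**Figure D4:**
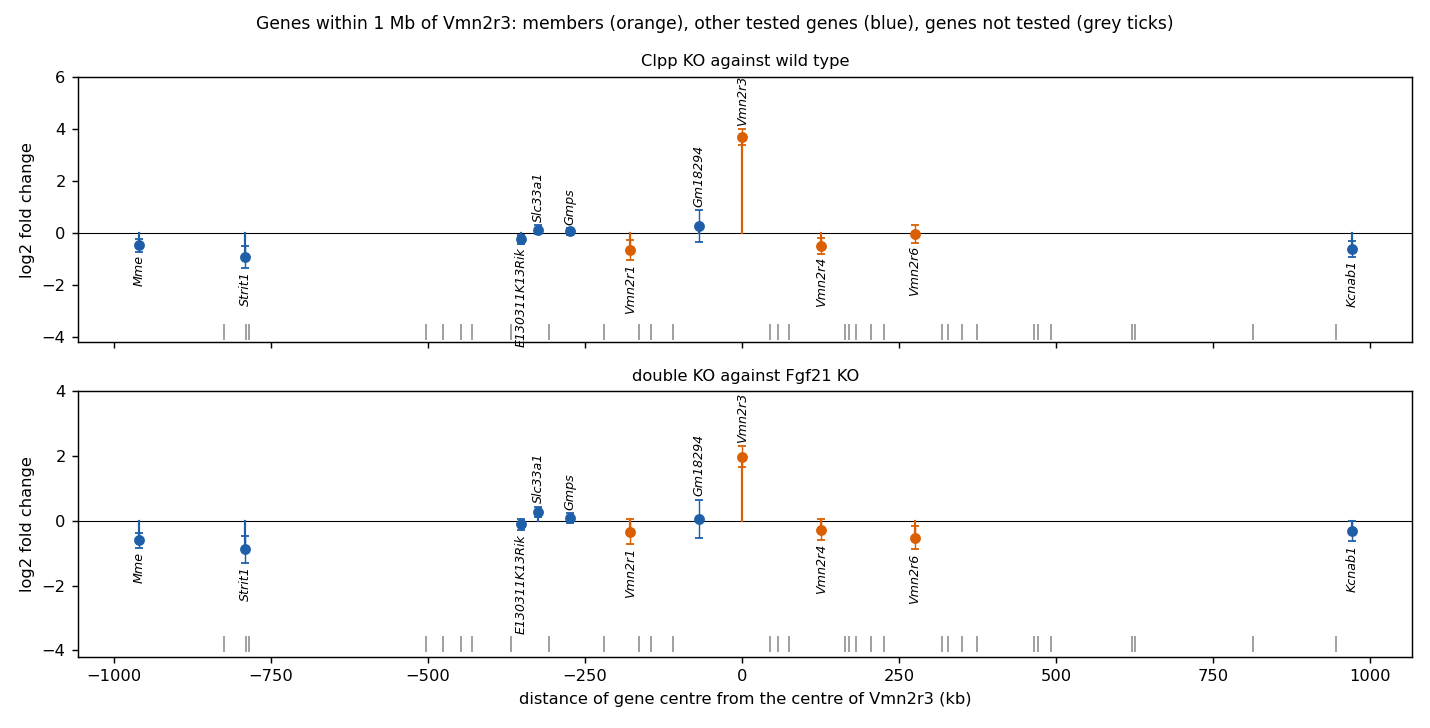
Log2 fold change (vertical axes) against distance of the gene centre from that of Vmn2r3 (kb, horizontal axis) for members (orange) and other tested genes (blue), with bars of 1 standard error and grey ticks for genes not tested. Among the tested genes Vmn2r3 alone departs from 0 by more than 1 in both comparisons, at 3.70 and 1.99. As its counts in these libraries chose it, this is no test.

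By Spearman correlation of log2 CPM scaled by TMM, the genes most like Vmn2r3 over the 16 libraries were Psat1 (0.968), Mafg (0.929), Bcl2 (0.921), Mx2 (0.912) and Trib3 (0.903). Psat1 is an enzyme of serine synthesis, Mafg a bZIP transcription factor, Bcl2 an inhibitor of apoptosis, Mx2 an interferon-induced GTPase and Trib3 a pseudokinase induced by the integrated stress response. By Pearson correlation the 5 were Atf5 (0.956), Bcl2 (0.951), Asns (0.949), Phgdh (0.943) and Mthfd2 (0.940), with Bcl2 the 1 gene on both lists. All of these correlations were taken over the same 16 libraries, whose 4 genotypes differ, and share their depth and scaling. Vmn2r1 (−0.262), Vmn2r4 (−0.285) and Vmn2r6 (−0.268) had negative Spearman values.

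The fold changes of genes on the Spearman and Pearson lists are a description, with no test, since their levels over these libraries chose them. In Clpp KO against wild type the log2 fold changes of the Spearman list ran from 0.53 ± 0.10 for Mafg to 1.75 ± 0.25 for Trib3. All of these were below that of Vmn2r3. The Pearson list ran from 0.58 ± 0.10 for Bcl2 to 3.84 ± 0.42 for Mthfd2, above the 3.70 of Vmn2r3. In double KO against Fgf21 KO, Mthfd2 (3.31), Phgdh (2.48) and Asns (2.34) were above the 1.99 of Vmn2r3. Atf5 (1.26) and the genes of the Spearman list were below it. In double KO against Clpp KO the Spearman list ran from −0.67 ± 0.22 for Psat1 to −0.16 ± 0.10 for Mafg. The Pearson list ran there from −1.73 ± 0.43 for Phgdh to −0.25 ± 0.10 for Bcl2. The summed CPM of 7 stress response genes was 137, 152, 64.6 and 87.1 in double KO, 257, 269, 222 and 209 in Clpp KO, 61.1 to 83.0 in Fgf21 KO and 56.7 to 131 in wild type. Double KO replicates 1 and 2 were the higher pair of their group for this sum and for Vmn2r3. They were also the higher pair for summed interferon-stimulated, fibroblast, macrophage, neuron, vomeronasal neuron, Schwann cell and ventricular markers. Endothelial, atrial, red blood cell and brown fat markers did not divide the group in this way. Their TMM factors were 0.796 and 0.805, against 0.69 and 0.674 in replicates 3 and 4. Among the 7 genes, Trib3, Atf5, Asns, Phgdh and Mthfd2 are on the lists chosen by correlation with Vmn2r3.

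**Figure D5:**
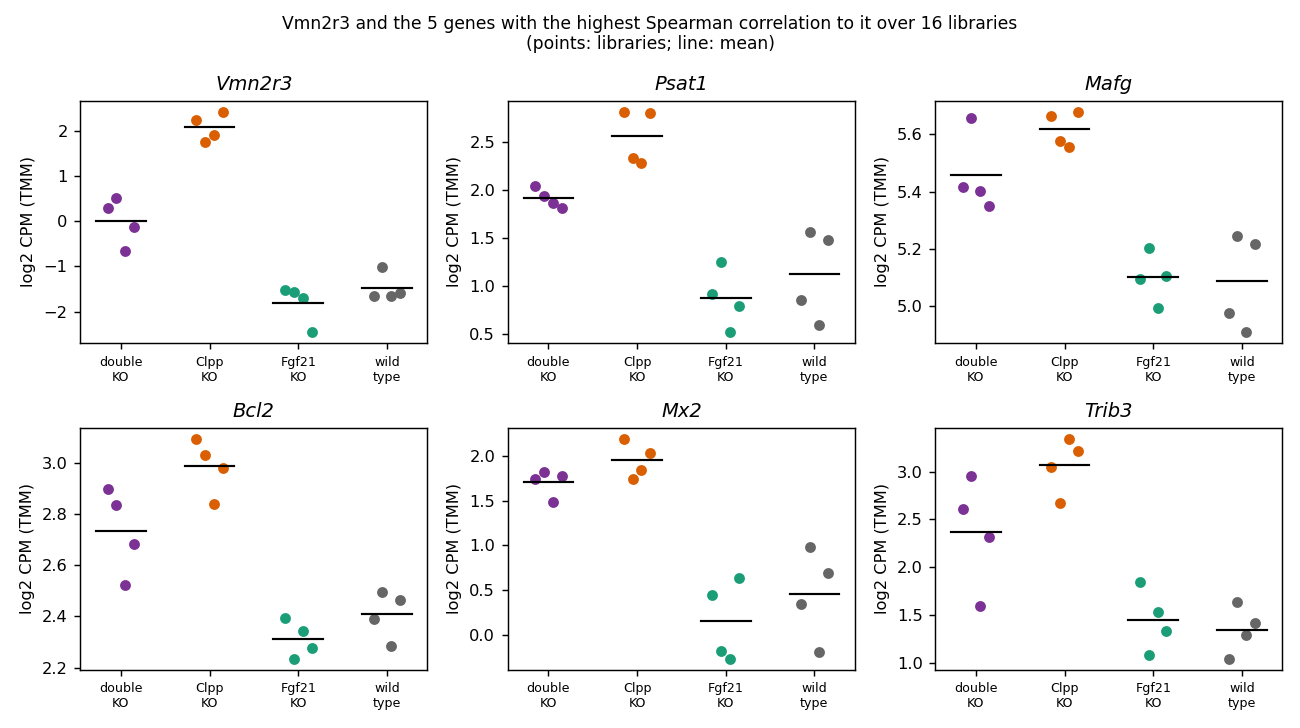
Log2 CPM scaled by TMM (vertical axes, own scale in each panel) of Vmn2r3 and the 5 genes most like it by Spearman correlation, by genotype, with points for libraries and lines at the means. In each of the 6 panels Clpp KO has the highest mean and double KO the second highest. As the 5 genes were chosen by this correlation, the shared order is no test. By library total, Mafg and Bcl2 are highest in wild type and lowest in double KO.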

How the data were processed

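RNA of cardiac tissue from 4 genotypes was measured in 16 libraries, grouped by their genotype labels. The authors deposited whole-number counts per gene. Per the submitters' processing notes, the build was GRCm38.p6 and the tools were R 4.0.3, DESeq2 1.30.1, edgeR 3.32.1, fastp 0.21.0 and kallisto 0.46.1. kallisto divides a read that matches several transcripts among them, and the rounding of its estimates to whole numbers is not described in those notes. Nor is the use of strand, so reads of overlapping or antisense genes may be mixed.

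Counts were analysed in R 4.3.3 as deposited, at a depth of 36260545 to 51820727 per library. The filterByExpr function of edgeR 4.0.16 (count minimum 10, total minimum 15) kept 15255 genes. All 16 libraries entered a single quasi-likelihood fit, with TMM scaling and robust dispersion (residual degrees of freedom 12, common biological coefficient of variation 0.249). Tests were two-sided, with Benjamini-Hochberg adjustment over all genes tested and a threshold of 0.05. Members below the filter were compared by exact permutation tests on CPM, unadjusted. Shared 31-base words and coding identity (MAFFT 7.526) used GENCODE M21. The alternatives were DESeq2 1.42.0, other scalings, no filter, a replicate block, wild-type replicates 1 and 3 alone or summed, and leaving out each library. The steps were tested on simulated counts.

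Named were all members, Clpp and Fgf21, the flanking genes within 1 Mb, the 5 genes most correlated with Vmn2r3, and from each list up to 4 called genes or, where none was called, up to 2. Members and lists were chosen with earlier results of these data known. Some listed genes are not reported here.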

Additional observations from a re-analysis of the deposited data

Results flagged for a closer look

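Vmn2r3 in wild-type replicate 2 stood apart from the other wild-type libraries, at 0.827 CPM by library total against 0.329 to 0.385 CPM in the other 3. The gap made up 0.886 of the range of the group, above Dixon's 95% critical value of 0.829 for 4 libraries. Of 31 groups of 4 libraries checked, 23 of members and 8 of Vmn2r25 and Vmn1r65, this was the 1 that passed, and chance passes about 1 in 20. As the values of Vmn2r3 chose the gene, this describes the library and supports nothing. Scaled by TMM the same library was at 0.453 CPM and still stood apart from the other 3, at 0.272 to 0.287 CPM. On that scale the gap was not set against Dixon's value. That library also had the largest TMM factor of the series, 1.83, and the highest summed level of atrial markers, 18400 CPM. The part of either in this value was not tested.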

How the results depend on the processing

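The log2 fold changes of Vmn2r3 kept their sign in all 83 alternative values, 81 of which lay within 0.399 of the values given (1 residual SD). Scaled by library totals alone they were 2.90 in Clpp KO against wild type and 1.33 in double KO against Fgf21 KO, and the members past the threshold numbered 3 and 4. These counts hold Vmn2r3, whose place in them is no test, and the other members called were 2 and 3 in place of 0 and 0. Leaving out single libraries gave 3.58 to 3.93 in Clpp KO against wild type, 1.80 to 2.17 in double KO against Fgf21 KO, −2.27 to −1.89 in double KO against Clpp KO, −0.47 to −0.13 in Fgf21 KO against wild type and −1.95 to −1.53 in the interaction.

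Signs turned for members that were not called. With wild-type replicates 1 and 3 alone, Vmn2r6 in Clpp KO against wild type was 0.19, and Vmn2r1 was 0.54 in Fgf21 KO against wild type and −0.31 in the interaction. With single libraries left out, Vmn2r6 in Clpp KO against wild type ran from −0.29 to 0.13 (0.11 without wild-type replicate 2, 0.13 without 3, 0.10 without Clpp KO replicate 1). Vmn2r4 in double KO against Clpp KO ran from −0.40 to 0.05, without Clpp KO replicate 4. Vmn2r1 ran from −0.26 to 0.47 in Fgf21 KO against wild type (0.47 without wild-type replicate 4, 0.03 without Fgf21 KO replicate 3) and from −0.24 to 0.49 in the interaction. Vmn1r65 in double KO against Clpp KO ran from −0.06 to 0.50. The causes were not tested.

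Genes called in Clpp KO against wild type numbered 249, with 847 by DESeq2, 11929 by library totals, 159 with wild-type replicates 1 and 3 alone, 562 with both summed and 114 to 955 with single libraries left out. In double KO against Fgf21 KO the 136 became 209, 10859 and 241 by the first 3 of these. In double KO against Clpp KO the 9 became 35 by DESeq2 and 15 with wild-type replicates 1 and 3 alone, in Fgf21 KO against wild type the 7 became 34 by DESeq2, and in the interaction the 0 became 3 by DESeq2. By library totals 0.796% of calls in Clpp KO against wild type were higher, against 66.3%, and 0.884% against 92.6% in double KO against Fgf21 KO.

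Libraries with the same repeat number did not deviate together (correlations −0.23 to 0.36 over 24 pairs, 3 over 0.1; 3 of 16 libraries were closest to their own number). With a replicate block, Vmn2r3 was 3.74, 1.96, −2.13, −0.36 and −1.78 in the 5 comparisons in the order above, and the 249 calls in Clpp KO against wild type became 146. Counts below about 10 limit Vmn2r2, Vmn2r5 and Vmn2r7.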
